A study of Mus musculus with 4 samples.

Results

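The CCAAT/enhancer-binding proteins Cebpa, Cebpb, Cebpd and Cebpg were measured by 8 probe sets, out of 22626 probe sets on the array once controls were set aside and 20380 that carry 1 gene symbol. They were taken by name, with every probe set annotated to one of the 4 symbols alone. The cells were tumour-associated macrophages sorted from gastrointestinal stromal tumours, a sarcoma of the gut wall usually driven by the Kit receptor tyrosine kinase, in a strain labelled GIST mice. The imatinib group had received imatinib, an inhibitor of Kit and related kinases, given in drinking water at 600 mg/L, and the other group is labelled vehicle control. Both groups carried tumours and were killed after 2 weeks of treatment, and the sources used here do not give the allele, age or sex of the mice. Each group was 8 mice whose sorted cells were pooled and run on 2 Affymetrix arrays, from 200 ng of RNA each. The design text calls these duplicates of a pool and the titles call them biological replicates, so p-values rest on array-to-array spread alone, which may be technical, and none of them measures the spread between mice.

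C/EBP factors are basic leucine zipper proteins that bind DNA as dimers with each other or with related zipper proteins. In the myeloid lineage C/EBPα drives the commitment of progenitors, C/EBPβ is a main factor of macrophage activation and is induced through cAMP response element-binding protein, and C/EBPδ is an early response factor of inflammation. C/EBPγ is short, lacks a strong activation domain of its own and acts as a dimer partner, also of the stress factor ATF4. C/EBPβ protein is made in long and short forms from 1 mRNA, which an expression array does not tell apart.

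The RefSeq promoter table (build GRCm38.p6) held 3 of the 4 genes. The 250 bases before each annotated start are shown because Cebpa and Cebpb changed most and Cebpg did not pass the test. Capitals mark TGACG, the half-site of the cAMP response element, TTGCG, a C/EBP half-site, and CCAAT, a box bound by other CCAAT factors, each on either strand.
Cebpb, chr2:167688665-167688914, plus strand: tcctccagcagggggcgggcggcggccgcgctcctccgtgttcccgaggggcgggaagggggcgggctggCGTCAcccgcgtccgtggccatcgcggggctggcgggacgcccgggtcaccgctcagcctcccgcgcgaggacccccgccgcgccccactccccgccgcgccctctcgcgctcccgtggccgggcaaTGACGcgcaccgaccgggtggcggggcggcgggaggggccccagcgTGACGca
Cebpa, chr7:35119043-35119292, plus strand: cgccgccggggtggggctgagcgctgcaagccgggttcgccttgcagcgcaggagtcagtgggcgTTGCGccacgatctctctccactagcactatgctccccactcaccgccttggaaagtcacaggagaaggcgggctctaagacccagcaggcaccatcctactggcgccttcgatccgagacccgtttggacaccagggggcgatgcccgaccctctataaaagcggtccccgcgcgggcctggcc
Cebpg, chr7:35056567-35056816, minus strand: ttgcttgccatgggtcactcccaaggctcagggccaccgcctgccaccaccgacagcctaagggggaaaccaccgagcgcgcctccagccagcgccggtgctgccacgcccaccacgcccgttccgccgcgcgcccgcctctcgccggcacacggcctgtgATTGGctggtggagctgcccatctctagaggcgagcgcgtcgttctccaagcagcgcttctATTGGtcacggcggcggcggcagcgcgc
The Cebpb stretch holds TGACG at 3 places, of which 1 is on the opposite strand, and no TTGCG. The cAMP half-site was found in 17.8% of the 32851 promoters of the table over the same length. The Cebpa stretch holds 1 TTGCG, found in 14.5% of promoters, and no TGACG. The Cebpg stretch holds neither and has 2 CCAAT boxes, both on the opposite strand, a box found in 33.8% of promoters. The GC box GGGCGG, found in 32.7% of promoters and not in capitals, occurs 5 times before Cebpb, with 1 pair of overlapping copies, and 0 times before Cebpa and Cebpg. The bases G and C made up 81.6% of the Cebpb stretch, 66.4% of that of Cebpa and 70.8% of that of Cebpg. The promoter shares were not matched for base composition. The complete cAMP response element, with the letters TGACGTCA, and the longer C/EBP motif, with the letters TTGCGNAA, are in none of the 3 stretches. In the RefSeq table Cebpa and Cebpg are neighbours on chromosome 7 with no protein-coding gene between them, while Cebpb lies on chromosome 2 and Cebpd on chromosome 16.

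Values below are microarray signals on the linear scale of the MAS5 algorithm. Folds divide imatinib by vehicle, and differences subtract vehicle from imatinib, on the scale log2(signal + 32). A probe set is called, or said to rise or fall, where the adjusted p of limma, a linear model fitted to all 13576 probe sets above a signal filter, lay below 0.05 after Benjamini-Hochberg adjustment.

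The sorted cells carried macrophage transcripts on all 4 arrays, with signals for the macrophage growth factor receptor Csf1r of 31382 and 29178 on the imatinib arrays and 27103 and 28656 on the vehicle arrays. Epithelial transcripts were present too and differed between the groups. For scale, 6.20% of the 8156 tested genes, each read from its brightest probe set, were called as higher and 8.46% as lower. All 13 epithelial markers were lower with imatinib, with a median log2 difference of -2.18, and their summed signal was 6791 to 6879 with imatinib and 33336 to 33613 with vehicle. None of them was at 0, and the brightest, the keratin Krt8, had 1853 and 1867 with imatinib against 9373 and 9653 with vehicle. Of 15 macrophage markers, 10 were higher with a median of 0.39, and their summed signal was 169539 to 176972 with imatinib and 142604 to 142978 with vehicle. Fibroblast markers were lower for 6 of 10 tested, with summed signals of 3720 to 4056 with imatinib and 7678 to 8365 with vehicle. Markers of tumour and interstitial cells of Cajal were lower for 4 of 6 tested, those of dendritic cells higher for 3 of 6, those of monocytes higher for 3 of 5 and those of T cells called for 0 of 6, while of 5 B cell markers 1 was higher and 1 lower. The part of these shifts in the C/EBP values was not tested, and in bulk RNA fewer cells of a type and less RNA per cell cannot be told apart. Each C/EBP value is therefore also given on a scale on which the mean of those 15 markers is equal on all arrays, which lowers every log2 difference by 0.48. The log2 differences of the single markers ran from -0.09 to 1.16, so this scale depends on which markers are used. Of these markers 5 are also among the genes tied to C/EBP factors below. Setting the array medians equal instead raises every log2 difference by 0.16.

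Cebpb rose most. Its probe set 1418901_at had signals of 13521 and 12307 on the imatinib arrays, against 5093 and 6163 on the vehicle arrays. The groups did not overlap, and the lower imatinib array was 2.00 times the higher vehicle array. The mean was 12914 ± 858.1 with imatinib and 5628 ± 757.2 with vehicle (SD, n = 2 each), a 2.30-fold difference (log2 1.20 ± 0.10, SE, limma adjusted p = 1.8e-05). The dimmer probe set 1427844_a_at had 1692 and 1765 with imatinib against 699.4 and 689.0 with vehicle. It gave 2.42-fold (log2 1.28 ± 0.10, limma adjusted p = 1.4e-05). The 95% intervals were 1.98 to 2.67-fold and 2.08 to 2.83-fold, so each probe set's fold lay inside the interval of the other. Of the tested probe sets, 99.7% and 99.8% had a smaller log2 difference than these 2. On the macrophage-marker scale both stayed higher, by 0.72 (limma adjusted p = 5.1e-04) and 0.80 (limma adjusted p = 3.7e-04).

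Cebpa, with the single probe set 1418982_at, rose less. Its signals were 2954 and 2701 on the imatinib arrays and 1493 and 1741 on the vehicle arrays, with no overlap. The means were 2828 ± 179.1 and 1617 ± 175.1 (imatinib and vehicle, SD, n = 2 each). The difference was 1.74-fold (log2 0.80 ± 0.10, SE, limma adjusted p = 4.7e-04) with a 95% interval of 1.48 to 2.03-fold. Of the tested probe sets, 98.6% had a smaller log2 difference. On the macrophage-marker scale it was still called as higher, by 0.32 (limma adjusted p = 0.034).

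**Figure D1:**
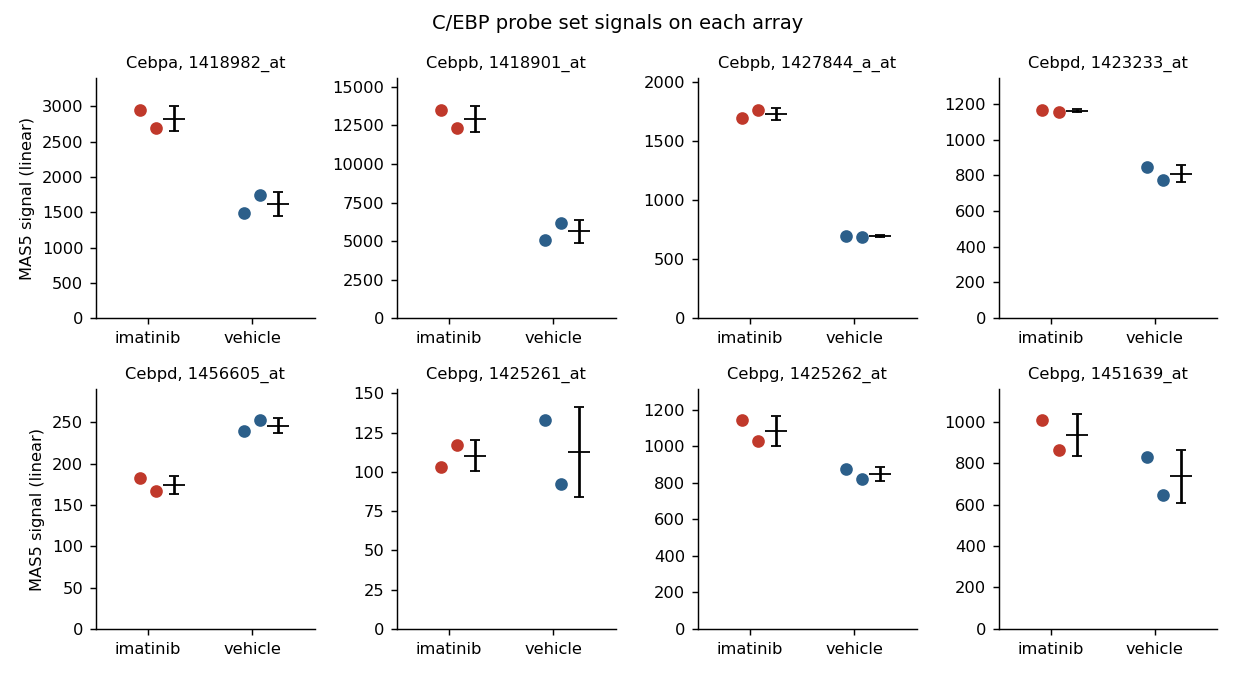
MAS5 signal on a linear scale for each of the 8 C/EBP probe sets on the 2 imatinib arrays (red, left) and the 2 vehicle arrays (blue, right), with black marks for mean ± SD. Both Cebpb probe sets, Cebpa and Cebpd 1423233_at are clearly apart and higher with imatinib, Cebpd 1456605_at is lower, and Cebpg 1425261_at overlaps.

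The 2 probe sets of Cebpd went opposite ways. The brighter, 1423233_at, had signals of 1168 and 1156 with imatinib and 845.0 and 775.7 with vehicle. It was higher by 1.42-fold (log2 0.50 ± 0.11, SE, limma adjusted p = 0.00998) and by 0.03 on the macrophage-marker scale, where it was not called (limma adjusted p = 0.83). The other, 1456605_at, had 182.1 and 166.9 with imatinib and 239.3 and 252.3 with vehicle. Here too the groups did not overlap, but imatinib was the lower one, by a log2 difference of -0.43 ± 0.18 that did not pass the test (limma adjusted p = 0.15). On the macrophage-marker scale this difference was -0.91 and was called as lower (limma adjusted p = 0.0023). The annotation lists no reference accession for 1456605_at, and which part of the transcript each probe set reads is not given in the sources used here. The call of 1423233_at was lost when either imatinib array was left out (limma adjusted p = 0.081 without imatinib replicate 1 and 0.060 without imatinib replicate 2).

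Cebpg did not pass the test with any of its 3 probe sets, which share 1 reference accession. Probe set 1425262_at had 1141 and 1026 with imatinib and 875.9 and 818.9 with vehicle, and was higher in both imatinib arrays by a log2 difference of 0.34 ± 0.11 (SE, limma adjusted p = 0.068). Probe set 1451639_at had 1006 and 862.6 with imatinib and 827.7 and 646.2 with vehicle, a difference of 0.34 ± 0.14 (limma adjusted p = 0.15). Its groups were separated by little, the lower imatinib array being 1.04 times the higher vehicle array. The dim probe set 1425261_at had 103.2 and 117.2 with imatinib, inside the vehicle values of 132.7 and 92.4, and a difference of -0.01 ± 0.25. Its 95% interval of 0.67 to 1.47-fold includes the folds of both other probe sets, 1.27 and 1.26. The 2 brighter probe sets were called as higher with array medians set equal (0.50 for each, limma adjusted p = 0.020 and 0.032) and turned to -0.13 and -0.14 on the macrophage-marker scale. On that scale 1425261_at was at -0.49 (limma adjusted p = 0.11).

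The genes were chosen with earlier results of these data known, so the counts here describe them and test nothing. Over the 4 genes, 4 of 8 probe sets were called as higher and 0 as lower, while 6.20% of the 13576 tested probe sets were called as higher and 7.38% as lower. Higher ones made up 45.7% of all calls, against 69.2% with array medians set equal and 1.76% on the macrophage-marker scale. All 8 passed the filter on low signals. Both imatinib arrays lay above both vehicle arrays for 6 of the 8, as they did for 26.5% of all tested probe sets. On the macrophage-marker scale 3 were called as higher and 1 as lower, beside 1.09% higher and 61.0% lower among all tested probe sets. The calls on that scale were those of Cebpb and Cebpa upward and of Cebpd 1456605_at downward. The 95% interval of Cebpd 1423233_at on the deposited scale ended at 1.67-fold, below the lower bound of either Cebpb probe set.

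**Figure D2:**
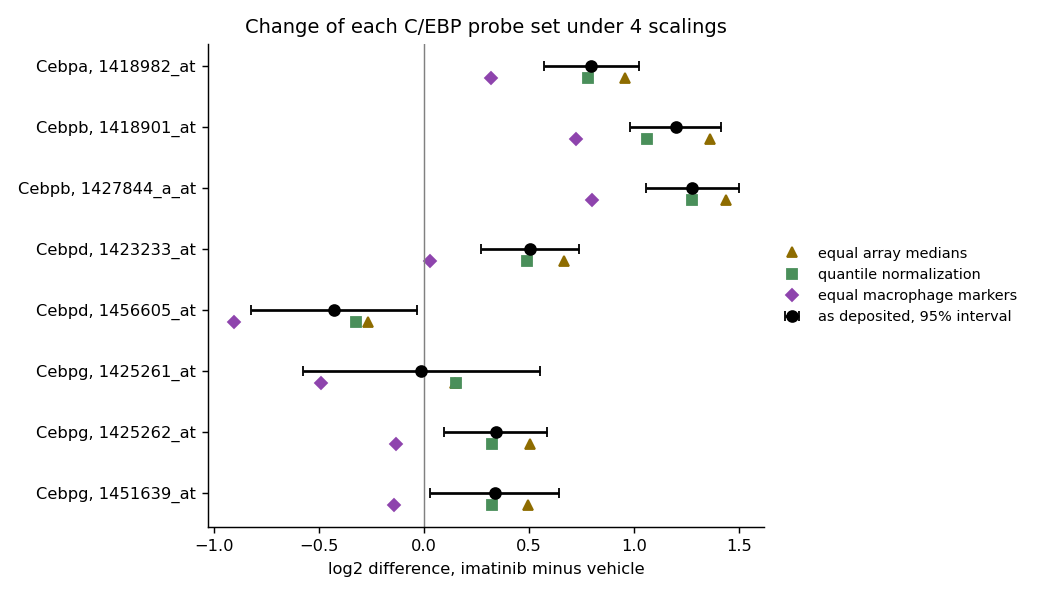
Log2 difference, imatinib minus vehicle, of each C/EBP probe set as deposited (black, with 95% interval) and under 3 other scalings of the arrays (coloured). Cebpb and Cebpa stay right of 0 under all 4, Cebpd 1423233_at comes to 0.03 with equal macrophage markers, and the 2 brighter Cebpg probe sets cross to the left of 0 there.

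**Figure D3:**
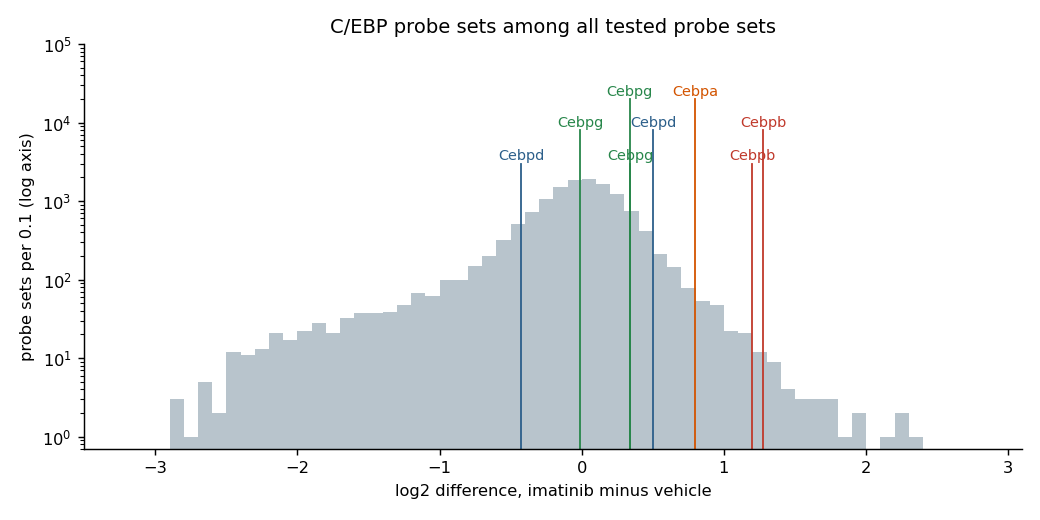
Number of tested probe sets per 0.1 of log2 difference, imatinib minus vehicle (grey, log axis), with a coloured line at each of the 8 C/EBP probe sets. The 2 Cebpb lines lie farthest right, with 99.7% and 99.8% of tested probe sets below them, followed by Cebpa with 98.6% and Cebpd 1423233_at with 95.6%, while the Cebpg lines and Cebpd 1456605_at lie further left.

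The sizes of the 4 changes were also set against each other. Ratios between 2 probe sets within an array do not depend on a scaling that shifts a whole array, so the change of each ratio was compared for the brightest probe set of each gene, over 6 pairs. The ratio itself compares the levels of different probes and has no meaning, and only its change is read. The log2 ratio of Cebpb to Cebpg was 3.54 ± 0.01 with imatinib and 2.68 ± 0.26 with vehicle (SD, n = 2 each), a change of 0.86. That of Cebpb to Cebpd changed by 0.69, that of Cebpa to Cebpg by 0.45 and that of Cebpa to Cebpd by 0.29. Between Cebpa and Cebpb the change was -0.40, the difference of Cebpb being the larger one, with a ratio of -2.18 ± 0.01 with imatinib and -1.78 ± 0.04 with vehicle. Cebpd to Cebpg changed least, by 0.16. In each of the 6 pairs the imatinib arrays lay apart from the vehicle arrays. How often pairs of other genes lie apart in this way was not counted. An exact two-sided permutation test over 4 arrays cannot go below p = 0.33, and each pair had that value (adjusted p = 0.33). The 6 pairs share the same 4 probe sets, so they are not separate observations.

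Among the dimer partners of C/EBP factors most were higher. One tested gene stood for the rest of the C/EBP family, Ddit3 (CHOP, a stress-induced inhibitory partner), with signals of 628.4 and 532.6 on the imatinib arrays and 529.1 and 635.0 on the vehicle arrays, which overlap (log2 0.00 ± 0.14, SE, limma adjusted p = 0.99). Ddit3 was called as lower on the macrophage-marker scale (-0.48). Of 8 other zipper proteins, most of them known to pair with C/EBP factors, 6 were higher and 1 lower, with a median log2 difference of 0.55. Over all 8156 tested genes, each read from its brightest probe set, 6.20% were called as higher and 8.46% as lower, with a median of -0.02. The 4 largest were Nfil3 (2.10-fold), a repressor of related binding sites, the stress-response factor Atf3 (1.72-fold), the AP-1 subunit Junb (1.54-fold) and Batf (1.53-fold). Atf3 had 10723 and 10301 with imatinib against 5918 and 6281 with vehicle. The 1 lower gene was Atf4, the main partner of C/EBPγ in amino acid stress, named after its value was seen, with a log2 difference of -0.44 ± 0.10 (SE) that was not called with array medians set equal (-0.28). Nor was Atf4 called without the signal filter (limma adjusted p = 0.090), and the suffix of its probe set marks possible hybridisation to other transcripts. Of the higher genes, Batf and the AP-1 subunit Fos also lost their call without the filter (limma adjusted p = 0.096 and 0.18). The other higher genes kept it. Fos was not called with array medians set equal either (limma adjusted p = 0.069). On the macrophage-marker scale 2 of the 8 were higher and 3 lower (median 0.08), beside 1.14% higher and 64.0% lower among all tested genes (median -0.50).

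Of 14 tested genes that act upstream of C/EBP transcription or phosphorylation, 4 were higher and 0 lower (median 0.07). They were the cAMP-responsive factor Crem (1.99-fold, with 385.5 and 344.9 on imatinib arrays and 185.1 and 151.2 on vehicle arrays), the early growth response factor Egr2 (1.84-fold), the interleukin-6 receptor gene Il6ra (1.54-fold) and the kinase Jak1 (1.42-fold). Crem and Egr2 remained called as higher on the macrophage-marker scale (0.52 and 0.40), and Il6ra and Jak1 were not called there (0.15 and 0.03). In all, 2 of the 14 were higher and 7 lower on that scale (median -0.41). Among all tested genes 1.14% were higher and 64.0% lower there (median -0.50). On the deposited scale 6.20% of all tested genes were higher and 8.46% lower. Of 12 tested genes that alter C/EBP stability, translation or activity, 1 was lower and 0 higher on it (median -0.02). It was Celf1, an RNA-binding protein that acts on the translation of Cebpb mRNA, with a log2 difference of -0.29 ± 0.09 (SE, limma adjusted p = 0.047), which was -0.13 and not called with array medians set equal. With equal macrophage markers 0 of the 12 were higher and 9 lower (median -0.50). Of 4 tested myeloid factors that act with C/EBP proteins, only the progenitor factor Myb passed, as lower, with 51.5 and 30.9 on imatinib arrays and 228.4 and 240.2 on vehicle arrays. Gut epithelium expresses Myb too, a part that was not tested, and the suffix of its probe set marks possible hybridisation to other transcripts. The other three, Spi1, Runx1 and Irf8, had log2 differences of 0.13 to 0.16. With equal macrophage markers 0 of these 4 were higher and 3 lower (median -0.34).

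Genes described as C/EBP targets in myeloid cells were higher in part. On the deposited scale, 6.20% of all tested genes were called as higher and 8.46% as lower (median -0.02). Of 6 tested genes of alternative activation, 5 were higher and 0 lower (median 0.80). The macrophage-marker scale gave a median of 0.32, with 2 called as higher and 0 as lower. Among all tested genes 1.14% were higher and 64.0% lower on that scale. The mannose receptor Mrc1 had 10755 and 9889 with imatinib against 4014 and 4120 with vehicle (2.52-fold). The secreted factor Retnla was higher by 2.16-fold, the chitinase-like Chil3 by 1.78-fold and the cytokine Il10 by 1.70-fold. Arg1 and Vegfa of this list lay below the signal filter and were not tested, and both had lower signals with imatinib. Arg1, the arginase of alternative activation, had 29.8 and 11.8 with imatinib against 86.2 and 90.4 with vehicle, and without the filter its log2 difference was -1.21 (limma adjusted p = 0.076). Vegfa had 63.2 and 75.7 with imatinib against 93.7 and 87.9 with vehicle (-0.28 without the filter, limma adjusted p = 0.65). Of 9 tested inflammatory genes, 4 were higher and 1 lower (median 0.56), and with equal macrophage markers 4 were higher and 3 lower (median 0.09). The chemokine Cxcl1 was higher by 2.52-fold, the prostaglandin synthase Ptgs2 by 1.98-fold and the chemokine Ccl2 by 1.82-fold. The acute-phase gene Saa3, a C/EBP target that gut epithelium also expresses, was lower, with 351.8 and 415.0 on imatinib arrays and 1319 and 1331 on vehicle arrays (log2 -1.71 ± 0.12, SE). The epithelial markers were lower on the same arrays, as given above, and their part in the Saa3 value was not tested. Nos2, Ptges and Csf3 of this list lay below the filter. Csf3, the granulocyte growth factor, had 11.1 and 11.1 with imatinib against 117.8 and 94.98 with vehicle, and was called as lower without the filter (log2 -1.68, limma adjusted p = 0.020). Nos2 had at most 4.31 on any array, and the Ptges signals of the groups overlapped.

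The deposited-scale shares over all tested genes, 6.20% higher and 8.46% lower, apply to the next lists too. Of 9 tested differentiation and granule genes, 4 were higher and 0 lower (median 0.62). These were the integrin Itgam (1.95-fold), the lysozyme Lyz2 (1.81-fold), the granulocyte growth factor receptor Csf3r (1.63-fold) and the endotoxin co-receptor Cd14 (1.54-fold), and of them Lyz2 alone was called as higher on the macrophage-marker scale (0.38), where 1 of the 9 was lower. Itgam was dim, with 157.1 and 201.7 on imatinib arrays and 88.3 and 64.3 on vehicle arrays. Without the signal filter Itgam and Csf3r were not called (limma adjusted p = 0.11 and 0.071), while Lyz2 and Cd14 were. The other 8 members of this list on the array lay below the filter. Neutrophil markers, of which 9 were on the array and 4 tested, summed to 1008 to 1022 with imatinib and 684.2 to 771.3 with vehicle. Most of them, Csf3r included, are also members of the granule list, so this sum is no separate measure of neutrophils. Csf3r alone had 491.3 and 418.8 with imatinib and 240.3 and 295.9 with vehicle. The part of neutrophils in the granule genes and in Csf3r was not tested. Of 17 tested genes of the ATF4 and CHOP stress response, 3 were higher and 0 lower (median 0.05): the amino acid transporter subunit Slc3a2 (1.58-fold), the phosphatase regulator Ppp1r15a (1.53-fold) and Ddit4 (1.52-fold), a repressor of mTOR signalling. None of the 17 was called as higher on the macrophage-marker scale, where 10 were lower. Among all tested genes 1.14% were higher and 64.0% lower there. Of 6 lipid genes 1 was higher, the scavenger receptor Cd36 (1.47-fold), and 0 were lower (median 0.00). With equal macrophage markers 5 of the 6 were lower and 0 higher, and Cd36 was not called (0.08). The median there was -0.48, against -0.50 over all tested genes. Adipocyte and hepatocyte markers, from cell types rich in C/EBPα, did not reach the signal filter with any of 4 and 4 genes on the array, and their summed signals were at most 57.4 and 159.1 with imatinib and 145.6 and 126.6 with vehicle.

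**Figure D4:**
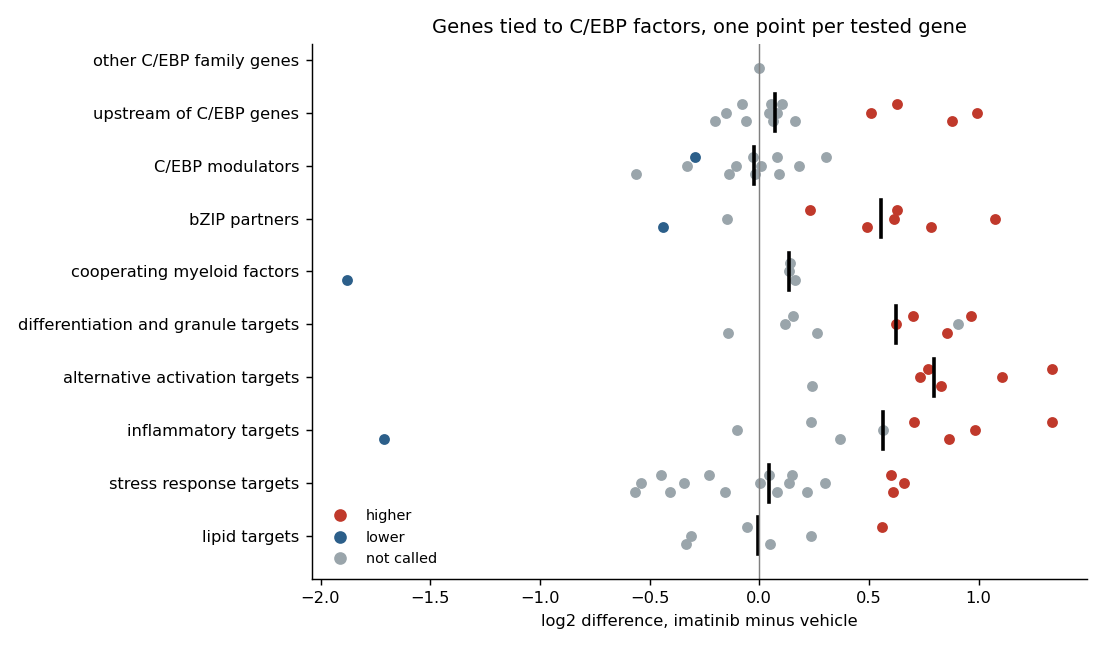
Log2 difference, imatinib minus vehicle, of every tested gene in 10 lists tied to C/EBP factors, with red for called as higher, blue for called as lower, grey for not called and a black bar at each list's median (drawn for lists of more than 1 gene). The alternative activation targets centre on 0.80 and the zipper partners on 0.55, and the stress response targets on 0.05.

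The genes with the array pattern most like each called member were sought by the root mean square distance over the 4 arrays between log2 values set against the vehicle mean, among 8155 other tested genes. For Cebpb these were the immunoglobulin gene Igkv14-111, the chemokine receptor-like gene Ccrl2, the kinase Stk17b, the engulfment receptor Mertk and the lectin Clec10a, at distances of 0.03 to 0.09 log2. Igkv14-111 was dim, with 150.2 and 124.6 on imatinib arrays and 35.1 and 49.1 on vehicle arrays, and belongs to a family of near-identical segments, so its identity is uncertain. For Cebpa they were the phagosomal metal transporter Slc11a1, Ifitm6, the sialic acid-binding receptor Cd22, Il10 and the fungal receptor Clec7a, at 0.04 to 0.05. For Cebpd 1423233_at they were Suox, the lectin-like receptors Klrb1b and Klrd1, the lipid kinase Pik3c2a and the adhesion molecule Vcam1, at 0.02 to 0.04. Suox itself was not called (limma adjusted p = 0.19).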

How the data were processed

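Signal intensity per probe set was deposited by the authors on a linear scale, and the submitters' processing notes name MAS5 and Affymetrix Expression Console, whose versions and settings the sources used here do not give. MAS5 brings each array to one trimmed mean (500.3 on all 4 arrays here, 2% trimmed at each end), so abundant transcripts shift the others and dim signals are noisy. Array medians were 122.3 and 133.7 with imatinib and 152.4 and 141.5 with vehicle, and Gapdh ratios of 3-prime to 5-prime signal 2.34 and 2.09 against 2.91 and 2.76. Their part in the C/EBP values was not tested. The number of arrays limits the precision.

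Controls (64 probe sets) were left out. Signals were transformed as log2(signal + 32), so folds are on that scale and understate changes of dim genes. Probe sets with a mean signal at or above the 40th percentile (82.9) were tested with limma 3.58.1 in R 4.3.3 (two-sided, lmFit and trended eBayes, Benjamini-Hochberg over 13576 probe sets, threshold 0.05). Genes were named from the platform annotation, for probe sets with 1 symbol only, and lists read each gene's brightest probe set. The fit was tested on simulated data.

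Named are all C/EBP probe sets, up to 4 called genes of each list by size (or up to 2 bright ones), the 5 nearest patterns of each called member and bright markers. The members and lists were chosen with earlier results of these data known. Alternatives were other pseudocounts, filters, scalings and variance models, the brightest probe set of each gene, a replicate block and each array left out. Promoters came from RefSeq.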

Additional observations from a re-analysis of the deposited data

How the results depend on the processing

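Cebpa and both Cebpb probe sets kept their direction and their call under every alternative run (15 for Cebpa and Cebpb 1418901_at, 14 for Cebpb 1427844_a_at). Their log2 differences ranged from 0.32 to 0.96, 0.72 to 1.36 and 0.80 to 1.44, lowest with equal macrophage markers and highest with equal array medians, and their highest adjusted p (limma) was 0.034, 0.013 and 0.0052. Cebpd 1423233_at was no longer called with equal macrophage markers (0.028), without the mean-variance trend (0.50, limma adjusted p = 0.075) or without either imatinib array (0.45 to 0.56 over the 4 arrays left out in turn), where 1 array in a group is assumed to vary like the other group. Cebpd 1456605_at became a call with equal macrophage markers (-0.91). Of the Cebpg probe sets, 1425262_at and 1451639_at were called with equal medians (0.50 and 0.50) and turned negative with equal macrophage markers (-0.13 and -0.14), and 1425261_at turned positive under quantile normalization (0.15) and equal medians (0.15), ranged from -0.21 to 0.19 with 1 array left out, and was lowest at -0.49 with equal macrophage markers. The cause was not tested, except that setting medians or markers equal shifts all values by 1 amount.

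The counts of higher and lower probe sets, 842 and 1002, became 434 and 635 without the filter, 262 and 640 without the trend, and 148 and 8279 with equal macrophage markers. Higher ones were 1583 with equal medians (703 lower) and 550 with 1 probe set per gene, where fewer features are tested. With 1 array left out they were 303 to 646 higher and 600 to 798 lower. Same-numbered arrays deviated with a correlation of -0.10, and the numbers are not said to mark a shared batch. With the replicate block 763 were higher and 987 lower, and no C/EBP call changed (Cebpb 1418901_at log2 1.20, limma adjusted p = 2.9e-07). Cebpg 1425261_at and Cebpd 1456605_at had SE of 0.25 and 0.18, which were 0.17 and 0.12 without the mean-variance trend.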
